A study of Mus musculus with 18 samples.

Results

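The genes described here are 10 genes that mark regulatory T cells (Treg cells), *Foxp3*, *Ikzf2*, *Ikzf4*, *Il2ra*, *Ccr8*, *Capg*, *Nrp1*, *Izumo1r*, *Tnfrsf4* and *Tnfrsf18*, out of 37236 genes in the deposited expression table. They were taken by symbol as known Treg cell genes. RNA was sequenced from CD3+ tumor-infiltrating lymphocytes (TILs) sorted at d14 from subcutaneous B16-OVA melanoma, a mouse melanoma line that carries the model antigen ovalbumin. All mice were young adults on the C57BL/6 background and received 500000 tumor cells. The 4 groups were wild-type mice given the isotype control antibody IgG2b (n = 3), wild-type mice given anti-PD-L1 (n = 6), *Nr2f6*-/- mice given IgG2b (n = 3) and *Nr2f6*-/- mice given anti-PD-L1 (n = 6). Anti-PD-L1 is an antibody that blocks the ligand of the inhibitory T cell receptor PD-1, and 0.5 mg of either antibody was injected from d3 onwards. *Nr2f6* encodes an orphan nuclear receptor of T cells. Its deletion was germline, so that TILs, tumor stroma and all other host cells lacked it while the injected tumor cells did not. CD4+ and CD8+ cells were enriched on beads and pooled before the CD3+ sort, and in which proportion was not given in the sources used here. The labels did not say whether each library came from 1 mouse, so p-values measured the spread between libraries.

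Treg cells are CD4+ T cells that restrain other T cells. The transcription factor FOXP3 defines the lineage, and Helios (*Ikzf2*) and Eos (*Ikzf4*), members of the Ikaros zinc finger family, work with it. Treg cells hold a high-affinity IL-2 receptor through its alpha chain CD25 (*Il2ra*), and in tumors they often carry the chemokine receptor CCR8 and the costimulatory receptors OX40 (*Tnfrsf4*) and GITR (*Tnfrsf18*). Neuropilin-1 (*Nrp1*), a receptor for semaphorins, and folate receptor 4 (*Izumo1r*) are further surface proteins of these cells. *Capg* encodes an actin-capping protein. Most of these genes are not restricted to Treg cells. Activated effector T cells can express *Il2ra*, *Tnfrsf4* and *Tnfrsf18*, and macrophages can express *Capg* and *Nrp1*. In bulk RNA, fewer cells of a type and less RNA per cell cannot be told apart.

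Levels are given as normalized counts, that is, reads per gene divided by a size factor of the library. They were not divided by gene length, and the genes were therefore not ranked against each other by level. The libraries held between 12473391 and 18609482 reads with 11107 to 13655 genes detected. A count of 3 reads, taken as the detection floor, corresponded to 2.46 to 3.65 normalized counts. *Nr2f6* had 0 reads in all 9 libraries of *Nr2f6*-/- mice and 20.2 to 201 normalized counts in wild-type mice. *Cd3e* was present at 7381 to 15541 normalized counts. The labels carry 1 running library number with a gap, and the libraries before and after this gap are treated here as separate sets. The first library set (12 libraries) holds replicates 1, 2 and 3 of every group and the second (6 libraries) replicates 4, 5 and 6, all from anti-PD-L1 mice. IgG2b libraries belonged to the first set only, so that the second set could add to comparisons between genotypes under anti-PD-L1 but gave no treatment effect of its own. Its libraries still entered every contrast of anti-PD-L1 with IgG2b, and the main fit held no term for the library set. In those contrasts treatment and library set cannot be told apart in full.

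*Foxp3* lies on chromosome X (7579676 to 7595243, GRCm38.p6, RefSeq). With IgG2b, its normalized counts were 509, 249 and 221 in the wild-type libraries and 836, 518 and 791 in the *Nr2f6*-/- libraries. With anti-PD-L1, they ran from 243 over a median of 465 to 912 in wild-type mice and from 184 over a median of 602 to 910 in *Nr2f6*-/- mice. All 3 *Nr2f6*-/- libraries with IgG2b stood above all 3 wild-type ones, whereas the ranges of the anti-PD-L1 groups covered each other almost in full. The difference with IgG2b was 1.20 on the log2 scale (SE 0.57, 95% interval 0.03 to 2.37), a 2.30-fold higher level in *Nr2f6*-/- mice, and it did not pass the adjusted threshold (limma adjusted p = 0.920). Of all 11992 genes tested, 14.2% had groups that did not overlap in this comparison, against 1 of the 10 Treg cell genes. Under anti-PD-L1 the genotypes differed by -0.03 (95% interval -0.86 to 0.80), with 0.33 in the first library set and -0.39 in the other. PD-L1 blockade gave 0.61 (95% interval -0.40 to 1.63) in wild-type mice and -0.62 (95% interval -1.63 to 0.40) in *Nr2f6*-/- mice, and the test of the difference between these effects gave -1.23 (SE 0.70, adjusted p = 0.974). The wild-type blockade value was 0.15 in the first library set alone and 0.98 without replicate 1 of wild type with IgG2b, and the *Nr2f6*-/- value was -0.36 without replicate 5 of the anti-PD-L1 group. In the GENCODE M21 annotation, where its gene body begins further upstream than in RefSeq, *Foxp3* overlaps *Ppp1r3f*, *Gm36995* and *Ccdc22*, and whether reads were counted by strand was not given in the sources used here.

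**Figure D1:**
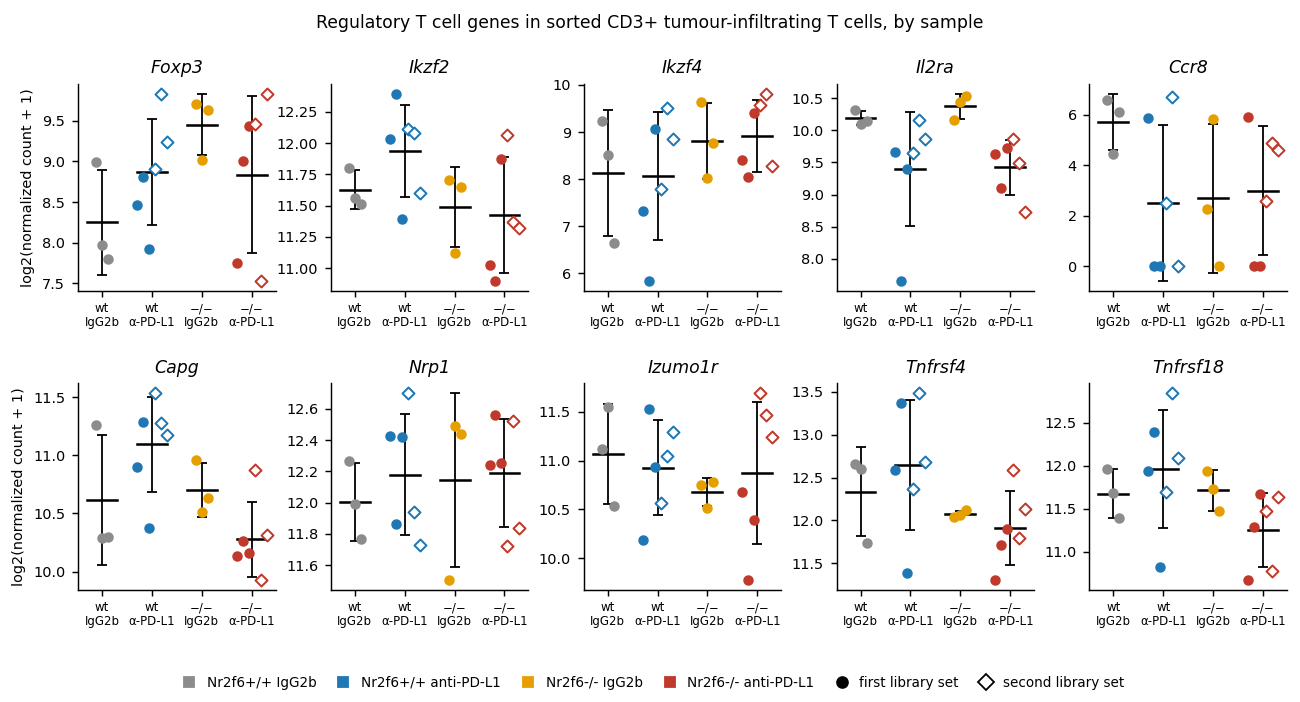
Normalized counts (log2 axis) of each of the 10 Treg cell genes by group. Filled circles are libraries of the first set, open diamonds those of the second set, and bars give the mean ± SD on the log2 scale. *Foxp3* in the IgG2b groups lies at 221 to 509 (wild type) and 518 to 836 (*Nr2f6*-/-), while the anti-PD-L1 groups overlap.

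Sequences around annotated start sites of the Treg cell genes were read for short motifs because a nuclear receptor was deleted. RefSeq start-site windows (GRCm38.p6, 250 bases before to 50 after the start) were at hand for 8 of the 10 genes. The hexamer AGGTCA, bound by nuclear receptors, was searched on both strands. It was found in 3 of the 9 windows of these 8 genes, those of *Foxp3*, *Capg* and *Nrp1*, and in 16.3% of all 32851 windows. These windows are shown because they hold a match. Between genotypes, *Foxp3* had the lowest p-value of the 10 genes with IgG2b (limma adjusted p = 0.920) and *Capg* under anti-PD-L1 (limma adjusted p = 0.143). *Nrp1* differed little in either contrast. *Tnfrsf4* and *Tnfrsf18*, at -0.74 and -0.71 under anti-PD-L1, had windows without a match. Capitals mark AGGTCA or its reverse complement TGACCT, and all windows read 5′ to 3′ on the plus strand.
*Foxp3* (chrX:7580233-7580532): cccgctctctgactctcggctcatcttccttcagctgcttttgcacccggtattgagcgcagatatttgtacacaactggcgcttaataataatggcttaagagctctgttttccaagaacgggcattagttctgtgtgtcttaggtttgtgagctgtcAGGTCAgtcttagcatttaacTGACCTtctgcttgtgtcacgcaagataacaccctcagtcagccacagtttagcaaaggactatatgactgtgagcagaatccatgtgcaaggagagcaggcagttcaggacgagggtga
*Capg* (chr6:72549397-72549696): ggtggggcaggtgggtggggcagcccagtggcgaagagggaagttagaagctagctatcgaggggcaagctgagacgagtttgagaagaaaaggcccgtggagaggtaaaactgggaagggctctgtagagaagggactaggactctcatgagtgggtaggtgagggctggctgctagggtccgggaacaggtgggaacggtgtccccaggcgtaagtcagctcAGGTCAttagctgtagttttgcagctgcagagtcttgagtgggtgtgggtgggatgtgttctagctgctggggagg
*Nrp1* (chr8:128358823-128359122): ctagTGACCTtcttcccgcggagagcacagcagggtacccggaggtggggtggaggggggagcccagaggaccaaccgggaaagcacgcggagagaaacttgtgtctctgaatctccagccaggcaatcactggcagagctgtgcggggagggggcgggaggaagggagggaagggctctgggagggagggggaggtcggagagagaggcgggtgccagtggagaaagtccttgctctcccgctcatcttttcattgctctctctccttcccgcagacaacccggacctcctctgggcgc
All windows shown lie inside the RefSeq gene bodies, so the starts used are internal ones. For *Foxp3* the start used is at 7580483, while the gene body begins at 7579676. The matches began 91 and 70 bases before this *Foxp3* start, 26 bases before that of *Capg* and 246 bases before that of *Nrp1*. The letters GGAAA, the core read by NFAT factors, occurred in 7 of the 9 windows (6 of the 8 genes) and in 61.3% of all windows. The AP-1 letters TGANTCA occurred in 0 of the 9 windows and in 7.81% of all windows. A match is a run of letters and not a measured binding site.

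Helios (*Ikzf2*) was abundant in every library. Its normalized counts with IgG2b were 3576, 3024 and 2922 in wild-type and 3335, 2232 and 3208 in *Nr2f6*-/- mice. With anti-PD-L1 they ran from 2691 over a median of 4254 to 5386 in wild-type and from 1906 over a median of 2596 to 4288 in *Nr2f6*-/- mice. The IgG2b groups overlapped, and under anti-PD-L1 4 of the 6 *Nr2f6*-/- libraries lay below the lowest wild-type library. The genotype difference under anti-PD-L1 was -0.51 (SE 0.20, 95% interval -0.92 to -0.10, limma adjusted p = 0.381). In the other 4 contrasts between groups the *Ikzf2* difference lay between -0.20 and 0.31, each with an adjusted p of 0.867 or more.

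Eos (*Ikzf4*) varied widely between libraries of the same group. The wild-type libraries with IgG2b held 599, 365 and 99.5 normalized counts and the *Nr2f6*-/- libraries 793, 259 and 434. With anti-PD-L1 the values ran from 56.1 over a median of 342 to 726 in wild-type and from 265 over a median of 508 to 900 in *Nr2f6*-/- mice. All groups overlapped. The genotype differences were 0.68 (95% interval -0.89 to 2.24) with IgG2b and 0.86 (95% interval -0.25 to 1.96, adjusted p = 0.640) with anti-PD-L1. In folds, these intervals ran from 0.541 to 4.72 and from 0.842 to 3.89.

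CD25 (*Il2ra*) had lower mean levels with anti-PD-L1 than with IgG2b in both genotypes, and neither difference passed the adjusted threshold. With IgG2b its normalized counts were 1281, 1099 and 1138 in wild-type and 1141, 1384 and 1485 in *Nr2f6*-/- mice. With anti-PD-L1 they ran from 200 over a median of 804 to 1150 in wild-type and from 422 over a median of 757 to 936 in *Nr2f6*-/- mice. In *Nr2f6*-/- mice every anti-PD-L1 library lay below every IgG2b library, while in wild-type mice the highest anti-PD-L1 library, at 1150, lay above 2 of the 3 IgG2b libraries. The blockade effect was -0.80 in wild-type mice (SE 0.39, 95% interval -1.59 to -0.01, limma adjusted p = 0.685) and -0.95 in *Nr2f6*-/- mice (SE 0.39, 95% interval -1.74 to -0.16, limma adjusted p = 0.394). Without the wild-type anti-PD-L1 library of replicate 2, which held 200 normalized counts, the wild-type effect was -0.45, and in the first library set alone, which holds that library, it was -1.29. The effects of blockade in the 2 genotypes differed by -0.15 (95% interval -1.27 to 0.96). *Nr2f6*-/- mice with anti-PD-L1 against wild-type mice with IgG2b, the combination contrast, gave -0.77 (95% interval -1.56 to 0.02, adjusted p = 0.575), again with no overlap between the groups. The genotypes differed by 0.03 under anti-PD-L1 (95% interval -0.62 to 0.67), and the library sets gave opposite signs there, 0.58 in the first set against -0.53 in the other.

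The summed level of 14 macrophage and monocyte marker genes was also lower with anti-PD-L1 than with IgG2b in both genotypes. The sums ran from 16191 to 20479 normalized counts in wild-type mice with IgG2b and from 1611 to 6941 with anti-PD-L1, and from 9353 to 13236 and from 916 to 2701 in the same order in *Nr2f6*-/- mice. The defining markers *Adgre1* and *Csf1r* were at 0 in 4 and 1 of all 18 libraries, while *Lyz2* was present in each at 296 to 7325. Of the 13 markers tested, 0 had a difference above 0 with blockade in either genotype. The medians were -3.35 (wild type) and -3.54 (*Nr2f6*-/-), beside -0.10 and -0.04 over all genes. At an unadjusted p under 0.05 by limma stood 12 (7.24% of all genes) and 10 (9.7%). The adjusted threshold was passed by 1 (wild type, *Lyz2*) and 2 (*Nr2f6*-/-, *Lyz2* and *C1qb*). In the combination contrast 5 of the markers passed, *Lyz2*, *C1qb*, *Apoe*, *Mrc1* and *Adgre1*, all lower. For *Nr2f6* loss with IgG2b the marker median was -0.78, while *Il2ra* differed by 0.18. The relation of the marker sums to *Il2ra* over libraries and their part in the *Il2ra* result were not tested.

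OX40 (*Tnfrsf4*) and GITR (*Tnfrsf18*) are neighbouring genes on chromosome 4 and behaved alike. *Tnfrsf4* had normalized counts of 6475, 6233 and 3410 in wild-type and 4217, 4294 and 4449 in *Nr2f6*-/- mice with IgG2b. With anti-PD-L1 it ran from 2684 over a median of 6359 to 11510 in wild-type and from 2525 over a median of 3699 to 6160 in *Nr2f6*-/- mice. The wild-type anti-PD-L1 group thus covered all but the lowest of the *Nr2f6*-/- libraries, and its 2 highest libraries, replicates 2 and 5, lay far above them. *Tnfrsf18* had 3979, 3279 and 2688 normalized counts in wild-type and 3937, 3404 and 2834 in *Nr2f6*-/- mice with IgG2b. With anti-PD-L1 it ran from 1818 over a median of 4152 to 7366 in wild-type and from 1628 over a median of 2672 to 3250 in *Nr2f6*-/- mice. Here 5 of the 6 wild-type libraries lay above all 6 *Nr2f6*-/- libraries, and only replicate 3 fell among them.

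Under anti-PD-L1 the genotype difference was -0.74 for *Tnfrsf4* (SE 0.26, 95% interval -1.26 to -0.21, limma adjusted p = 0.315), that is, 0.600 of the wild-type level. For *Tnfrsf18* it was -0.71 (SE 0.24, 95% interval -1.21 to -0.22, limma adjusted p = 0.301), 0.610 of the wild-type level. Neither passed the adjusted threshold. Without the wild-type library of replicate 3 the adjusted p of both was 0.0525, and over all alternatives it ran up to 0.764 for *Tnfrsf4* and 0.750 for *Tnfrsf18*. With IgG2b the genotypes differed by -0.26 (95% interval -0.998 to 0.482) in *Tnfrsf4* and by 0.04 (95% interval -0.66 to 0.74) in *Tnfrsf18*.

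CCR8 transcripts had 0 reads in some libraries and stood well above the floor in others of the same group. *Ccr8* normalized counts with IgG2b were 94.9, 20.8 and 68.0 in wild-type and 3.81, 56.5 and 0 in *Nr2f6*-/- mice. With anti-PD-L1 they ran from 0 over a median of 2.32 to 104 in wild-type and from 0 over a median of 14.03 to 59.5 in *Nr2f6*-/- mice. *Ccr8* had 0 reads in 6 of the 18 libraries, and every group other than wild type with IgG2b held at least 1 of these. Blockade in wild-type mice gave -3.20 (95% interval -6.90 to 0.49) and *Nr2f6* loss with IgG2b -3.01 (95% interval -7.28 to 1.26). The difference between the blockade effects was 3.50 (95% interval -1.73 to 8.72). Even the narrowest 95% interval of its log2 differences, that of the genotypes under anti-PD-L1, ran from -2.53 to 3.50. The interval included 0 in each contrast.

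Neuropilin-1 (*Nrp1*) had the narrowest spread of the surface receptors on the log2 scale. With IgG2b its normalized counts were 4919, 4068 and 3479 in wild-type and 2898, 5765 and 5559 in *Nr2f6*-/- mice. With anti-PD-L1 they ran from 3397 over a median of 4698 to 6649 in wild-type and from 3369 over a median of 4860 to 6051 in *Nr2f6*-/- mice. All groups overlapped, and the differences of the 5 contrasts lay between 0.01 and 0.18. The interval of the genotype difference under anti-PD-L1 was -0.40 to 0.42, which leaves room for a level between 0.759 and 1.34 of that in wild-type mice. *Nrp1* lies on chromosome 8, as does the deleted *Nr2f6*, 57.0 Mb away.

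Folate receptor 4 (*Izumo1r*) had normalized counts of 2218, 3003 and 1484 in wild-type and 1717, 1462 and 1758 in *Nr2f6*-/- mice with IgG2b. With anti-PD-L1 it ran from 1165 over a median of 2036 to 2952 in wild-type and from 875 over a median of 2031 to 3314 in *Nr2f6*-/- mice. All groups overlapped. The genotype difference under anti-PD-L1 was -0.05 (95% interval -0.61 to 0.51). The library sets went opposite ways, at -0.60 in the first set and 0.50 in the second, and neither passed the adjusted threshold (adjusted p = 0.556 and 0.750).

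*Capg* showed the smallest p-value of the 10 genes. With IgG2b its normalized counts were 2456, 1247 and 1256 in wild-type and 1989, 1459 and 1586 in *Nr2f6*-/- mice. With anti-PD-L1 they ran from 1330 over a median of 2403 to 2977 in wild-type and from 971 over a median of 1187 to 1875 in *Nr2f6*-/- mice. Of the *Nr2f6*-/- libraries 5 of 6 lay below the lowest wild-type library, and 5 of 6 wild-type libraries lay above the highest *Nr2f6*-/- library. The genotype difference under anti-PD-L1 was -0.82 (SE 0.22, 95% interval -1.27 to -0.36, limma adjusted p = 0.143), that is, 0.568 of the wild-type level. It was -0.67 in the first and -0.96 in the second library set. On reads recovered from the normalized counts, DESeq2 gave -0.83 (adjusted p = 0.0306) and edgeR -0.83 (adjusted p = 0.175), and over all alternatives the adjusted p ran from 0.0306 to 0.709. With IgG2b the genotype difference was 0.09 (95% interval -0.56 to 0.73), and the blockade effects in the 2 genotypes differed by -0.90 (SE 0.39, limma adjusted p = 0.974). With anti-PD-L1 the macrophage marker sums given beside *Il2ra* were 916 to 2701 in *Nr2f6*-/- and 1611 to 6941 in wild-type libraries. These ranges overlapped, and of 13 markers 3 had a difference above 0 and 0 passed the adjusted threshold. The marker median was -0.78 in this contrast and -0.78 for *Nr2f6* loss with IgG2b. With blockade, *Capg* differed by 0.48 in wild-type and -0.42 in *Nr2f6*-/- mice, beside marker medians of -3.35 and -3.54. The part of these markers in the *Capg* result was not tested.

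With limma's moderated test on log2 normalized counts, 0 of the 10 genes passed an adjusted p of 0.05 in any contrast. The share of all 11992 genes that passed was 0.242% for PD-L1 blockade in wild-type mice, 0.325% for blockade in *Nr2f6*-/- mice and 0.0% for *Nr2f6* loss with IgG2b. It was 0.175% for *Nr2f6* loss with anti-PD-L1, 0.617% for the combination contrast and 0.0% for the test of the difference between the blockade effects. At an unadjusted p under 0.05 stood 1 gene for blockade in wild-type mice (*Il2ra*, with 7.24% of all genes), 1 for blockade in *Nr2f6*-/- mice (*Il2ra*, 9.7%) and 1 for *Nr2f6* loss with IgG2b (*Foxp3*, 5.35%). The same held for 4 genes for *Nr2f6* loss with anti-PD-L1 (*Capg*, *Tnfrsf18*, *Tnfrsf4* and *Ikzf2*, all lower, against 9.73% of all genes). It held for 0 in the combination contrast (9.04%) and for 1 in the difference between blockade effects (*Capg*, 4.97%). edgeR called 0 of the 10 genes in each contrast, with 0, 1, 0, 4, 0 and 1 at an unadjusted p under 0.05 in the same order. DESeq2 called 1, *Capg* for *Nr2f6* loss with anti-PD-L1, and had the same unadjusted counts as edgeR. In that contrast DESeq2 called 184 of all 11992 genes, where limma called 21. Shares of all genes at an unadjusted p are given for limma only.

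Groups without any overlap were seen in 0 of the 10 genes for blockade in wild-type mice (4.54% of all genes) and in 1 in *Nr2f6*-/- mice (*Il2ra*, 5.12%). They were seen in 0 genes for *Nr2f6* loss with anti-PD-L1 (0.592%) and in 1 in the combination contrast (*Il2ra*, 6.17%). The median difference of the 10 genes was 0.23 for blockade in wild-type mice beside -0.10 over all genes, and -0.12 beside -0.04 for blockade in *Nr2f6*-/- mice. It was 0.06 beside -0.06 for *Nr2f6* loss with IgG2b, -0.04 beside -0.0049 with anti-PD-L1, and -0.27 beside -0.12 in the combination contrast. In the same order, 6, 4, 6, 4 and 3 of the 10 genes had a difference above 0.

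**Figure D2:**
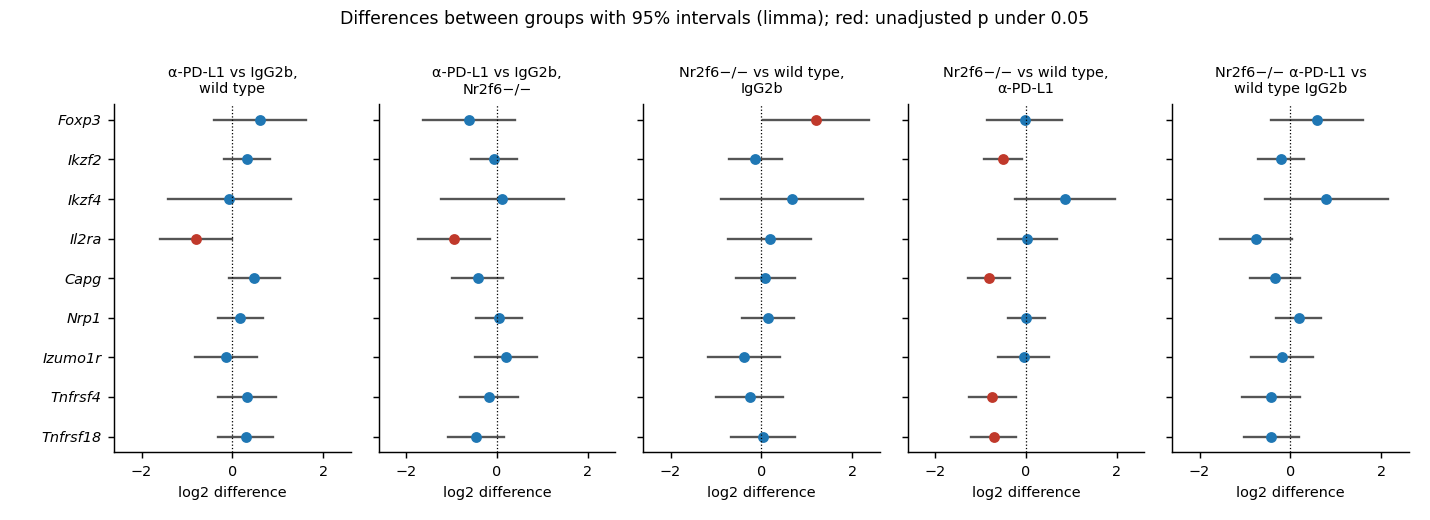
Log2 differences (limma, with 95% intervals) of the Treg cell genes in each contrast between groups. Red points have an unadjusted p under 0.05 and *Ccr8* is left out for its wide intervals. For *Nr2f6* loss with anti-PD-L1, *Capg* (-0.82), *Tnfrsf4* (-0.74), *Tnfrsf18* (-0.71) and *Ikzf2* (-0.51) lie below 0, while *Foxp3* lies at -0.03.

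Because the libraries mixed CD4+ and CD8+ cells, the genes were also set against *Cd4* of the same library. *Cd4* ran from 1669 to 7530 normalized counts over the 18 libraries, and its differences between groups lay between -0.30 and 0.04. *Foxp3* as a percentage of *Cd4*, a ratio of normalized counts and not a share of cells, was 11.9, 4.36 and 6.25 in wild-type and 11.1, 18.7 and 17.5 in *Nr2f6*-/- libraries with IgG2b. With anti-PD-L1 it ran from 8.20 over a median of 12.1 to 15.7 in wild-type and from 4.91 over a median of 15.3 to 21.5 in *Nr2f6*-/- mice. Relative to *Cd4* the IgG2b groups overlapped, since wild-type replicate 1 (11.9) lay above *Nr2f6*-/- replicate 1 (11.1), the library with the highest *Cd4* level.

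On the log2 scale, *Foxp3* per *Cd4* was 1.16 higher in *Nr2f6*-/- than in wild-type mice with IgG2b (two-sided exact permutation p = 0.2, where 3 against 3 libraries allow no p below 0.1). Under anti-PD-L1 the genotypes differed by 0.09 (exact permutation p = 0.814, smallest possible 0.00217). Blockade gave 0.75 in wild-type mice (exact permutation p = 0.119) and -0.32 in *Nr2f6*-/- mice (exact permutation p = 0.619), and the combination contrast gave 0.84 (exact permutation p = 0.167), each with a smallest possible p of 0.0119. In the first library set alone the values were 1.16, 0.09, 0.69, -0.38 and 0.78, and each had an exact permutation p of 0.2 or more.

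**Figure D3:**
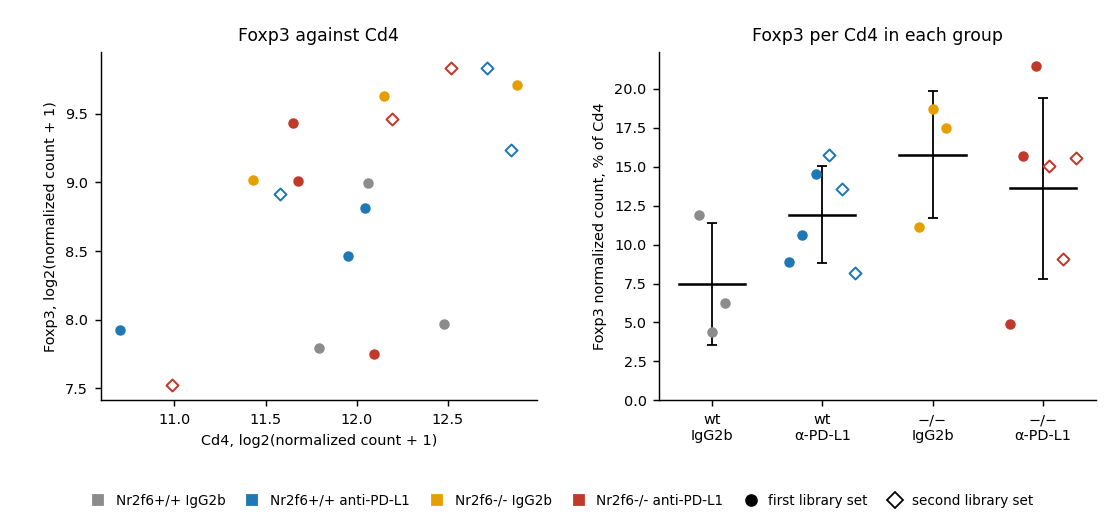
Left, *Foxp3* against *Cd4* (normalized counts, log2 axes) in 18 libraries; right, *Foxp3* as a percentage of *Cd4* by group, with bars for the mean ± SD. The groups overlap at 4.36 to 11.9 (wild type, IgG2b), 8.20 to 15.7 (wild type, anti-PD-L1), 11.1 to 18.7 (*Nr2f6*-/-, IgG2b) and 4.91 to 21.5 (*Nr2f6*-/-, anti-PD-L1).

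All 11991 other genes were tested as a ratio to *Cd4* with limma. Of the 10 Treg cell genes 0 passed the adjusted threshold in any of the 5 contrasts. The share of all genes that passed was 0.0% for blockade in wild-type mice, for blockade in *Nr2f6*-/- mice and for *Nr2f6* loss with IgG2b, 0.0167% for *Nr2f6* loss with anti-PD-L1 and 0.108% for the combination contrast. *Capg*, with the clearest genotype difference in level under anti-PD-L1, was -0.70 per *Cd4* (95% interval -1.50 to 0.11). The ratio also carries the spread of *Cd4*, and the SE of *Capg* was 0.40 per *Cd4* against 0.22 as a level. For *Nrp1* in this contrast it was 0.44 against 0.20.

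The relation of each Treg cell gene to *Cd4* over the 18 libraries was measured with Pearson's r on log2 values, 1 relation for each of the 11991 other genes, and 0.0% of all genes passed an adjusted permutation p of 0.05. *Foxp3* had r = 0.565 (permutation p = 0.0142, adjusted p = 0.663) and Spearman's rho = 0.583 (permutation p = 0.0130). The value was 0.336 without the 2 libraries whose *Cd4* was farthest from the median, 0.301 in the first library set, 0.876 in the second and 0.638 after group means were removed. *Tnfrsf18* (r = 0.616, permutation p = 0.00692, adjusted p = 0.659, rho = 0.432) and *Tnfrsf4* (r = 0.529) were also higher where *Cd4* was higher. For *Tnfrsf18* r was 0.390 without the same 2 libraries. *Capg*, *Ikzf2*, *Izumo1r*, *Il2ra*, *Ccr8* and *Ikzf4* had r between 0.0752 and 0.409.

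*Nrp1* ran against *Cd4*. Its r was -0.717 (permutation p = 0.000810, adjusted p = 0.428), with a Spearman's rho of -0.732, and it stood at place 11983 of 11991 genes ordered from the highest r down. The value was -0.734 without the 2 libraries farthest from the median of *Cd4*, -0.719 after group means were removed, -0.609 in the first library set and -0.839 in the second. *Cd8a*, the marker of the other T cells in the pool, had r = -0.723 with *Cd4*, and *Nrp1* had r = 0.524 with *Cd8a*.

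*Tnfrsf18* had the clearest relation to *Cd8a*, a reference chosen after the data were seen. Its r was -0.799 (permutation p = 9e-05, adjusted p = 0.133), with a Spearman's rho of -0.734, and -0.631 without the 2 libraries farthest from the median of *Cd8a*. It was -0.603 in the first library set and -0.983 in the second. *Tnfrsf4* (r = -0.681) and *Capg* (r = -0.612) were also lower where *Cd8a* was higher, and *Foxp3* had r = -0.378. For *Foxp3* this was -0.717 after group means were removed, -0.0406 without the 2 farthest libraries, -0.0695 in the first library set and -0.693 in the second. Of all genes, 0.0% passed the adjusted threshold against *Cd8a*. *Cd8a* itself was higher in *Nr2f6*-/- than in wild-type libraries under anti-PD-L1 by 0.54 (limma adjusted p = 0.278), the contrast in which *Capg*, *Tnfrsf18* and *Tnfrsf4* were lowest in p-value among the 10 genes. The part of the CD4 to CD8 balance in those differences was not tested beyond the ratio to *Cd4*.

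Against *Foxp3*, *Tnfrsf18* came first among the other Treg cell genes (r = 0.619, permutation p = 0.00537, adjusted p = 0.947), followed by *Capg* (r = 0.469) and *Tnfrsf4* (r = 0.438). The remaining genes had r between -0.30 and 0.31, and 0.0% of all genes passed the adjusted threshold. The genes most like *Foxp3* by r over the 18 libraries were *Rabl3* (0.807), *Slc36a1* (0.722), *Paox* (0.721), *Haghl* (0.718), *Ago2* (0.711), *Il1r2* (0.708), *Acap1* (0.706), *Chmp6* (0.702), *Aldoc* (0.700) and *Mrpl41* (0.697). Among them *Il1r2*, a decoy receptor for IL-1, is known from tumor Treg cells. Among the genes most like *Cd4* were *Ly6e* (0.833), *Trim21* (0.788), *H2-M3* (0.764), *Upp1* (0.764), *N4bp2* (0.748), *Maf* (0.745), *Lancl2* (0.739), *Paox* (0.738) and *Cd81* (0.730).

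**Figure D4:**
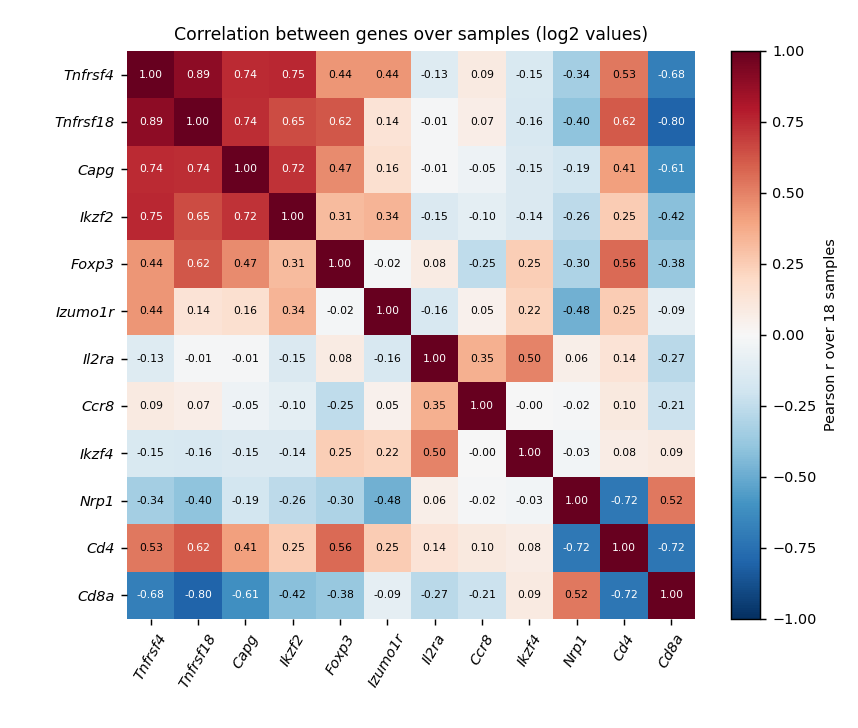
Pearson's r on log2 normalized counts over 18 libraries between the Treg cell genes, *Cd4* and *Cd8a* (colour scale from -1 to 1). *Tnfrsf4*, *Tnfrsf18*, *Ikzf2* and *Capg* form a block with r of 0.654 to 0.891, and *Nrp1* has r = -0.717 with *Cd4*.

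Over the 45 pairs of Treg cell genes the median r was 0.0452, 23 pairs lay above 0 and 7 above 0.5. Of these 7, *Tnfrsf4*, *Tnfrsf18*, *Ikzf2* and *Capg* held 6 among themselves, and the seventh was *Foxp3* with *Tnfrsf18*. The highest was *Tnfrsf4* with *Tnfrsf18*, at r = 0.891 (permutation p = 1e-05, the smallest that 100000 permutations can give, adjusted p = 0.0171) and rho = 0.854 (adjusted p = 0.135). It was 0.807 without the 2 libraries farthest from the median of *Tnfrsf4*, 0.875 after group means were removed, 0.898 in the first library set and 0.936 in the second. *Tnfrsf4* was made a reference after the data were seen. By r, 0.0667% of all genes (8 of 11991) passed against *Tnfrsf4*, and 0 passed by rho.

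*Tnfrsf4* (chromosome 4, 156013595 to 156016613) and *Tnfrsf18* (156026322 to 156028894) are 9.71 kb apart in GRCm38.p6. The other neighbour of *Tnfrsf4*, *Sdf4* (155992843 to 156013610), which encodes a calcium-binding protein of the Golgi apparatus, was named after its values were seen. *Sdf4* stood first among all genes against *Tnfrsf4* (r = 0.892, rho = 0.876, adjusted p = 0.0171) and *Tnfrsf18* second. The RefSeq gene bodies of *Sdf4* and *Tnfrsf4* share 16 bases, while in GENCODE M21 0 genes overlap *Tnfrsf4*. Which annotation was used and how reads on both genes were handled was not given. The part of such reads in this relation was not tested. *Sdf4* and *Tnfrsf18*, which do not touch, had r = 0.787. The remaining genes past the threshold were *Ehd1*, *Igfn1*, *Irf5* and *Pbld2* with r above 0 and *Atxn1* and *Fhl2* with r below 0.

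**Figure D5:**
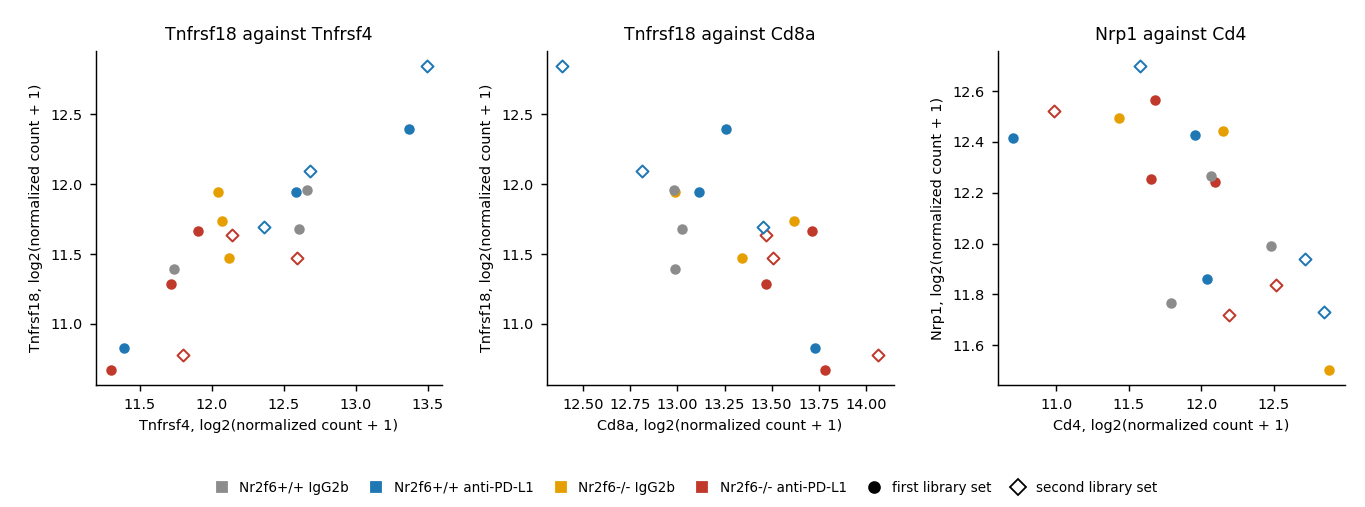
*Tnfrsf18* against *Tnfrsf4*, *Tnfrsf18* against *Cd8a* and *Nrp1* against *Cd4* (normalized counts, log2 axes), with 1 point for each of 18 libraries, coloured by group. Points rise together in the first panel (r = 0.891) and fall in the others (r = -0.799 and -0.717).

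Other genes of the Treg cell program were read from lists of known function. Of 30 further genes expressed by Treg cells 29 were tested. *Entpd1*, which encodes the ectonucleotidase CD39, rose with *Nr2f6* loss under anti-PD-L1 (1.27, limma adjusted p = 0.0133) and in the combination contrast (1.63, limma adjusted p = 0.00698). Its normalized counts ran from 480 to 888 and from 497 to 1202 in wild-type mice with IgG2b and anti-PD-L1, and from 1181 to 2262 and from 1765 to 2735 in *Nr2f6*-/- mice. For *Nr2f6* loss with IgG2b its difference was of like size, 1.23, and did not pass (limma adjusted p = 0.579). No *Nr2f6*-/- library given anti-PD-L1 overlapped with any wild-type library. Which cells held the *Entpd1* RNA was not resolved. For *Nr2f6* loss under anti-PD-L1 *Foxp3* differed by -0.03 and *Cd8a* by 0.54. *Penk*, which encodes the opioid precursor proenkephalin, fell with *Nr2f6* loss under anti-PD-L1 (-1.69, limma adjusted p = 0.0299). The other 27 genes of the list passed in no contrast, and the list's median for *Nr2f6* loss under anti-PD-L1 was -0.05 beside -0.0049 over all genes.

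Among 25 partners and regulators of FOXP3, *Nr4a1*, an orphan nuclear receptor induced by T cell receptor signals, fell with PD-L1 blockade in wild-type (-1.74, limma adjusted p = 0.00927) and *Nr2f6*-/- mice (-1.74, limma adjusted p = 0.0104). Its normalized counts ran from 3721 to 5735 with IgG2b and from 851 to 1985 with anti-PD-L1 in wild-type mice, and from 5549 to 7468 and from 1095 to 3972 in *Nr2f6*-/- mice. None of the other 24 genes passed. Of 14 genes that FOXP3 holds low in Treg cells 12 were tested, and *Tcf7*, which encodes the factor TCF-1 of naive and stem-like T cells, fell with blockade in wild-type mice (-1.45, limma adjusted p = 0.00912) and in the combination contrast (-1.49, limma adjusted p = 0.00618). *Foxp3* had an adjusted p of 0.750 or more in the blockade and combination contrasts.

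Of the ligands and adaptors of the receptors among the 10 genes 10 of 13 were tested. *Sema4a*, a semaphorin of immune cells that can act on neuropilin-1, rose with *Nr2f6* loss under anti-PD-L1 (0.86, limma adjusted p = 0.0317), from 3130 to 4608 normalized counts in wild-type to 5062 to 8812 in *Nr2f6*-/- mice. The GITR ligand *Tnfsf18* and *Izumo1*, which encodes the sperm protein that the *Izumo1r* product binds on the egg, were at 0 in every library. None of 12 genes of the IL-2 receptor pathway (*Il2ra* included), 5 Ikaros family genes (*Ikzf2* and *Ikzf4* included) and 9 T cell identity genes passed in any contrast by limma. At an unadjusted p under 0.05 stood at most 4 of the 12 (blockade in wild-type mice, with 7.24% of all genes), 2 of the 5 (*Nr2f6* loss with anti-PD-L1, 9.73%) and 7 of the 9 (combination contrast, 9.04%). The median difference of the T cell identity genes in the combination contrast was 0.48 beside -0.12 over all genes. Their lowest p-values belonged to *Socs3*, an inhibitor of cytokine receptor signalling (1.41 for *Nr2f6* loss with anti-PD-L1, limma adjusted p = 0.0634), *Ikzf3*, which encodes Aiolos (0.70 for blockade in *Nr2f6*-/- mice, limma adjusted p = 0.222), and *Cd8b1*, which encodes the CD8 beta chain (0.67 for *Nr2f6* loss with anti-PD-L1, limma adjusted p = 0.121).

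Markers of other cells were checked because a CD3+ sort should leave few of them. Among B cell markers *Cd79a* was at 0 in all 18 libraries, and *Ms4a1* and *Pax5* were at 0 in 15 each. *Cd79b* ran from 0 (in 5 libraries) to 192 normalized counts, with differences of -3.38, 4.42, -4.41 and 3.38 for blockade in wild-type mice, blockade in *Nr2f6*-/- mice, *Nr2f6* loss with IgG2b and *Nr2f6* loss with anti-PD-L1, and it passed the adjusted threshold in no contrast. The melanoma markers summed to 736 to 7149 normalized counts. Their median difference was -1.79 for *Nr2f6* loss with IgG2b (2 of 6 at an unadjusted p under 0.05), -1.24 with anti-PD-L1 (3 of 6, with 9.73% of all genes) and -1.87 in the combination contrast (4 of 6), and 0 passed the adjusted threshold by limma. In these 3 contrasts *Capg* differed by 0.09, -0.82 and -0.34 and *Tnfrsf18* by 0.04, -0.71 and -0.42. The part of tumor RNA in the values of the Treg cell genes was not tested.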

How the data were processed

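RNA of CD3+ TILs was made into 3′ end libraries (QuantSeq) and sequenced on Ion Torrent. The authors trimmed reads with Cutadapt and Trimmomatic, mapped them to mm10 with STAR and then Bowtie2, counted them per gene with HTSeq-count, and deposited DESeq2-normalized counts, a signal of reads divided by a size factor per library. Tool versions, annotation and strand setting were not given in the sources used here. Because low values were whole multiples of the worth of 1 read, reads were recovered for 100% of values (tolerance 0.05 reads). Reads lie near the 3′ end of transcripts and were counted as reads, not molecules, so floors cover counting error only.

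Samples were grouped by their titles. The 11992 genes averaging 10 or more normalized counts were fitted on the log2(normalized count + 1) scale with limma 3.58.1 (R 4.3.3) as 4 group means over 18 libraries, with a mean-variance trend and Benjamini-Hochberg adjustment at 0.05, and all adjusted p of group comparisons are from limma unless edgeR or DESeq2 is named. The log2 ratio to *Cd4* was fitted alike. Fold changes on this scale understate changes of low genes. Single ratios were tested by two-sided exact permutation, correlations by 100000 permutations adjusted over 11991 genes for each of 4 reference genes (scipy 1.17.1). edgeR 4.0.16 and DESeq2 1.42.0 on recovered reads, other filters, pseudocounts and scalings, the library set, a replicate block and leaving out each library were alternatives. The limma and edgeR fits were tested on simulated data with large changes in well-expressed genes, and the correlations on simulated strong relations. Smaller changes, genes with low counts and DESeq2 were not covered by these tests. The 10 genes and all lists were chosen with earlier results of these data known. Markers of other cells are named only in part. The text names all 10 genes, *Cd4*, *Cd8a*, *Cd3e*, *Nr2f6*, list genes past the threshold (or with the lowest p where none passed) and the 10 genes most alike *Foxp3* and *Cd4*, of which 1 is not reported here. Start-site sequences and positions are RefSeq's (GRCm38.p6). Overlaps between genes are GENCODE's (M21), apart from the bases shared by *Sdf4* and *Tnfrsf4*, which are RefSeq's.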

Additional observations from a re-analysis of the deposited data

Results flagged for a closer look

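Within each group of 6 libraries the highest and lowest library was set against the others for the 10 Treg cell genes, as level and as ratio to *Cd4*, by Dixon's test with a critical value of 0.625. Of 40 such tests 2 passed, and chance flags about 1 in 20. The *Il2ra* level of the wild-type anti-PD-L1 library of replicate 2 was 7.65 on the log2 scale (200 normalized counts), far below the next lowest at 9.40. The same library had the fewest genes detected, 11107. The log2 ratio of *Tnfrsf18* to *Cd4* in the wild-type anti-PD-L1 library of replicate 6 was -0.75, while the next lowest library stood at -0.0095. That library had the highest *Cd4* level of its group, 7358 normalized counts.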

How the results depend on the processing

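The count of Treg cell genes past the adjusted threshold was recomputed under 32 alternatives for levels and 28 for ratios to *Cd4*. It was 0 in 321 of 322 recomputed counts, leaving out each library included (0 to 0), and 1 in the other, *Capg* for *Nr2f6* loss with anti-PD-L1 by DESeq2. Over all genes, DESeq2 called 94, 230, 88, 184, 177 and 76 in the order blockade in wild-type mice, blockade in *Nr2f6*-/- mice, *Nr2f6* loss with IgG2b, *Nr2f6* loss with anti-PD-L1, combination and difference between blockade effects, edgeR 19, 36, 0, 22, 41 and 0, and limma 29, 39, 0, 21, 74 and 0. *Foxp3* per *Cd4* between genotypes under anti-PD-L1 changed sign, to -0.0088 without replicate 6 of wild type and to -0.069 without replicate 3 of *Nr2f6*-/-, and over libraries left out it ran from -0.069 to 0.356. The same value ran from 0.425 to 1.15 for blockade in wild-type mice, from -0.552 to -0.0524 in *Nr2f6*-/- mice, from 0.833 to 1.55 for *Nr2f6* loss with IgG2b and from 0.515 to 1.24 for the combination. The r of *Foxp3* with *Cd4* was 0.301 in the first and 0.876 in the second library set, 0.336 without the 2 farthest libraries and 0.469 to 0.666 with 1 library left out, and the cause was not tested. The r of *Tnfrsf18* with *Tnfrsf4* was 0.936 in the second set, 0.807 without the 2 farthest libraries and 0.849 to 0.916 with 1 library left out. *Cd8a* and *Tnfrsf4* as references and the second library set alone were chosen after the data were seen. Of 1854 recomputed single differences 95 changed sign, 88 of them within 1 SE, and 0 of them past the threshold. Quantile normalization moved the median difference of all genes from -0.10 to -0.0014 for blockade in wild-type mice and from -0.12 to -0.0027 for the combination. Same replicate numbers did not pair the libraries: deviations from group means of 21 same-numbered pairs correlated at -0.029 to 0.037. With the replicate block, 0 of the 10 genes passed in each contrast, and 12, 27, 0, 31, 79 and 0 of all genes. *Ccr8* was at 0 reads in 6 libraries, where a count of 0 allows up to 3 reads.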
